A study of Mus musculus with 2 samples.

Results

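The genes of the platelet-derived growth factor (PDGF) system were followed through single-nucleus RNA sequencing of the mouse subventricular zone, the germinal tissue beside the lateral ventricle. The members were chosen by gene symbol: the 2 receptors Pdgfra and Pdgfrb and the 4 ligand chains Pdgfa, Pdgfb, Pdgfc and Pdgfd, 6 of the 32285 genes counted. Mice entered a MIP group, in which an intestinal perforation is modelled, or a Control group on postnatal day 5, and tissue was dissected and snap frozen after 48 h, on postnatal day 7. Each group is 1 library, and the sources used here do not give strain, sex, the number of animals or any pooling. With 1 library per group no difference has a replicate check and no test was made. Every interval given is an exact 95% interval that covers counting error only.

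PDGF ligands are secreted dimers that bind receptor tyrosine kinases, which then signal through the RAS and ERK arm, the PI3K and AKT arm and phospholipase C gamma. PDGFRA binds the A, B and C chains and PDGFRB binds the B and D chains, and the C and D chains must be cut by proteases before they are active. In the brain PDGFRA marks oligodendrocyte precursors, which proliferate in response to PDGF-AA, and PDGFRB marks the pericytes that endothelial PDGF-B recruits to vessels.

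Unique molecular identifiers (UMIs) numbered 100823376 over 12366 barcodes in MIP and 146730970 over 16964 barcodes in Control. After filtering, 10940 MIP nuclei with a median of 6029.5 UMIs and 14579 Control nuclei with a median of 5635 UMIs were kept. The libraries differed in sex-linked RNA: Xist stood at 1.41 CPM (UMIs of the gene scaled to the total UMIs of the library or class) in MIP and 1749 CPM in Control, and 4 Y-linked genes at 472 CPM in MIP and 0.314 CPM in Control, so MIP and sex cannot be told apart. They also differed in low-depth clusters, which held 6.52% of MIP and 25.0% of Control nuclei. The libraries shared 115 cell barcodes. Nuclei were clustered without the 6 genes and classes were named from markers that exclude them, so "astroglia-like" and similar names mean resemblance. Clusters without a name held 30.2% of MIP and 23.7% of Control nuclei.

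Over both libraries together the receptors lay mainly in different classes. Oligodendrocyte precursor-like nuclei and the cycling Sox10 cluster, a small cluster led by the cell cycle gene Top2a, held 82.0% of the Pdgfra UMIs (7607 of 9272). Astroglia-like nuclei held 66.2% of the Pdgfrb UMIs, and endothelial-like, mural-like and leptomeningeal fibroblast-like nuclei together held 14.4%. The same 2 sets of classes held 41.0% and 22.2% of the Pdgfd UMIs. Named neuron classes held 43.1% of the Pdgfa UMIs, 45.0% of the Pdgfb UMIs and 57.9% of the Pdgfc UMIs. A further 37.5%, 39.6% and 26.3% of these lay in unnamed clusters.

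**Figure D1:**
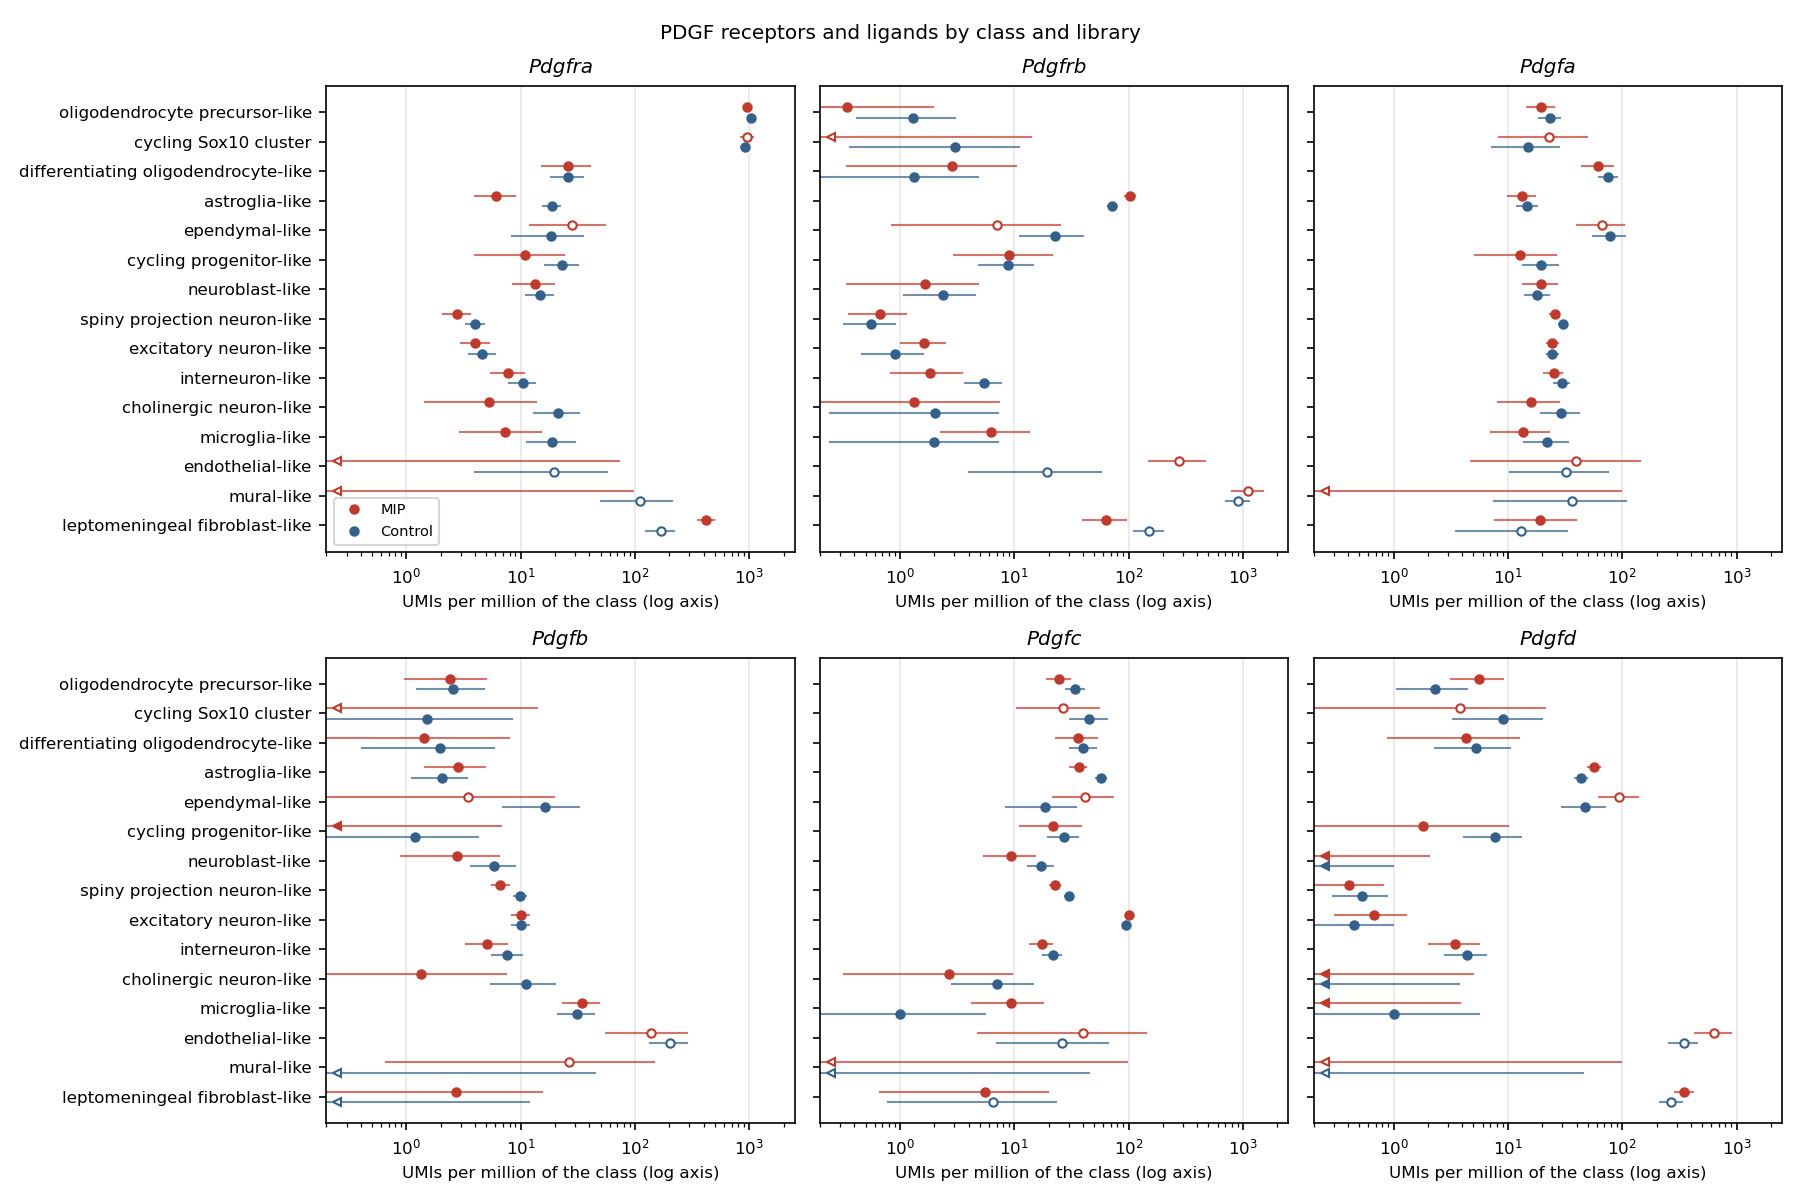
CPM of the class total (log axis) of each gene in each named class, MIP in red above Control in blue, with exact 95% intervals. Open symbols are classes under 50 nuclei in that library, and triangles at the left edge are values of 0. Pdgfra stands highest in precursor-like nuclei and the cycling Sox10 cluster in both libraries, Pdgfrb in mural-like, Pdgfb in endothelial-like and Pdgfc in excitatory neuron-like nuclei.

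Summed over all kept nuclei, 0 of the 6 genes differed by a fold of 1.5 or more between the libraries. Of the 22679 genes with at least 20 UMIs over both libraries, 2.9% were at least 1.5-fold higher in MIP and 20.9% at least 1.5-fold lower, and the median log2 ratio of MIP to Control was -0.20. Pdgfra stood at 42.7 CPM in MIP and 49.8 CPM in Control, a log2 ratio of -0.22, and Pdgfa at 25.4 CPM in MIP and 29.1 CPM in Control, a log2 ratio of -0.20. Both lay near the median gene. Pdgfb was at 7.27 CPM in MIP and 9.46 CPM in Control, a log2 ratio of -0.38 (-0.53 to -0.23). Pdgfrb stood at 7.33 and 6.98 CPM in MIP and Control, Pdgfc at 37.4 and 34.8 CPM, and Pdgfd at 7.79 and 5.89 CPM, with log2 ratios of 0.07, 0.10 and 0.40. Pdgfd passed the fold when centred on the median gene, at 0.60, and as a mean over nuclei, at 0.76. The shares of all genes past the fold in these settings were not counted. These library sums mix the classes, whose shares of nuclei differ between the libraries, and fewer nuclei of a class and less RNA per nucleus cannot be told apart in them.

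Pdgfra, the alpha receptor (ENSMUSG00000029231), lies on the plus strand of mm10 at chr5:75152292-75198215 and spans 45.9 kb. Pdgfa, its ligand gene (ENSMUSG00000025856), lies on the minus strand of the same chromosome at chr5:138976014-138997370 and spans 21.4 kb. Their promoters, 250 bases before to 50 after the RefSeq start on GRCm38.p6, are shown because receptor and ligand are set side by side along the oligodendrocyte lineage. Pdgfa has a further RefSeq promoter window at chr5:138994232-138994531. Capitals mark the letters GGGCGG or, on the other strand, CCGCCC, the GC box bound by Sp family factors.

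Pdgfra, chr5:75152001-75152300, plus strand: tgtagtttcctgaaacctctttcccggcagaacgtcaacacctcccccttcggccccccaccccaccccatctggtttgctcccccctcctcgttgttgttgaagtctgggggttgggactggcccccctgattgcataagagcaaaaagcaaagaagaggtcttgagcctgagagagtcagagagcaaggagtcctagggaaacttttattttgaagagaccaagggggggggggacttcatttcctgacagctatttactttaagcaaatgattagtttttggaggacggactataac

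Pdgfa, chr5:138994895-138995194, minus strand: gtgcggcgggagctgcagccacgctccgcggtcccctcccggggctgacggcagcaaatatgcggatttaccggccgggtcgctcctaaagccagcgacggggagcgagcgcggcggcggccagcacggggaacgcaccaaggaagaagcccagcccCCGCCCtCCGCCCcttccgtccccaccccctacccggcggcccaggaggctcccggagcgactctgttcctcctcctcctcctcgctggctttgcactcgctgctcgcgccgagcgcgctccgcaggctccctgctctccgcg

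The Pdgfra window was 51.0% G or C with 5 CG dinucleotides and no GC box letters. The Pdgfa window was 73.3% G or C with 37 CG dinucleotides and 2 matches. Over all 32851 RefSeq promoters of this length the median was 52.7% G or C and 7 CG dinucleotides, and 35.7% held a match. The single windows of Pdgfc and Pdgfd, at 55.0% and 56.7% G or C, held 8 CG dinucleotides each and no match. A match is a description of the letters and not a site, and its absence says nothing of the factor.

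In oligodendrocyte precursor-like nuclei the alpha receptor was present in nearly every nucleus of both libraries. Pdgfra had 2753 UMIs in 660 MIP nuclei and 3988 UMIs in 710 Control nuclei, or 954 CPM (919 to 990) in MIP and 1029 CPM (997 to 1061) in Control. The log2 ratio was -0.11 (-0.18 to -0.04), where the median gene of the class with at least 20 UMIs also stood at -0.11. At least 1 Pdgfra UMI was found in 92.6% of MIP and 95.6% of Control precursor-like nuclei, whose median depths were 4127.5 and 5074 UMIs. Thinned to 2000 UMIs each, with nuclei under 2000 UMIs left out, the shares were 82.0% in MIP and 80.8% in Control. In microglia-like nuclei, which should lack the gene, 1.99% of MIP and 5.37% of Control nuclei had a UMI, at median depths of 2665 and 3103.5 UMIs. The receptor thus differed little between the libraries in its main class.

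Single precursor-like nuclei varied more than counting alone gives. The median nucleus had 4 Pdgfra UMIs in MIP and 5 in Control, the highest had 18 in MIP and 30 in Control, and 436 of 660 MIP and 562 of 710 Control nuclei had 3 or more. The variance of the UMIs per nucleus over their mean was 2.30 in MIP and 2.72 in Control, and depth differs between nuclei. The cycling Sox10 cluster, 44 MIP and 91 Control nuclei, was at 956 CPM in MIP and 927 CPM in Control. Over both libraries the intervals of its 935 CPM (874 to 999) and the 997 CPM (973 to 1021) of the precursor-like class overlapped at their edges. The difference between these top levels was not tested. Leptomeningeal fibroblast-like nuclei came next with 303 CPM.

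Of the other members, 3 had at least 20 UMIs in precursor-like nuclei. Pdgfa was at 19.4 CPM in MIP and 23.2 CPM in Control (56 and 90 UMIs), and Pdgfc at 24.6 CPM in MIP and 34.1 CPM in Control, a log2 ratio of -0.47 (-0.91 to -0.04). Pdgfd had 16 UMIs in MIP and 9 in Control, a log2 ratio of 1.26 with an interval that includes 0 (-0.01 to 2.62). Thus 1 of the 4 measured members was past a fold of 1.5 upward and 0 downward in this class, where 4.3% of 13442 genes were past it upward and 15.3% downward. Pdgfrb had 1 UMI in MIP and 5 in Control, and Pdgfb 7 and 10.

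Along the lineage, receptor and ligand ran in opposite directions in both libraries. In differentiating oligodendrocyte-like nuclei Pdgfra was at 25.8 CPM in both MIP and Control (18 and 39 UMIs), far under the precursor-like level. Pdgfa stood at 61.5 CPM in 127 MIP nuclei and 75.3 CPM in 211 Control nuclei, a log2 ratio of -0.29 (-0.83 to 0.23), above its precursor-like level in both. Over both libraries its 71.0 CPM overlapped the 73.6 CPM of ependymal-like nuclei at the top of the order of named classes. The low-depth clusters 27, 0 and 10, which have no name, were near these levels at 72.6, 66.8 and 55.1 CPM. With doublets kept the class held 256 MIP and 400 Control nuclei with Pdgfa at 35.7 CPM in MIP and 49.7 CPM in Control, and with nuclei thinned to 2000 UMIs the log2 ratio was -1.17. In this class 0 of 3 measured members were past a fold of 1.5, where 8.5% of 10182 genes were past it upward and 17.1% downward.

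Enpp6, an enzyme gene of newly forming oligodendrocytes, was used to order these nuclei, without testing the order. Differentiating-like nuclei with 0 Enpp6 UMIs had Pdgfra at 31.2 CPM in MIP and 77.1 CPM in Control, and those with 3 or more had 23.6 CPM in MIP and 16.7 CPM in Control. At 1 or 2 UMIs Pdgfra was at 24.2 CPM in MIP and 0 in Control, and the MIP intervals at 0 (11.5 to 68.0) and at 3 or more (11.3 to 43.4) overlapped. Pdgfa was at 26.0 CPM in MIP and 14.7 CPM in Control at 0 Enpp6 UMIs, at 96.8 CPM in MIP and 42.2 CPM in Control at 1 or 2, and at 70.8 CPM in MIP and 95.8 CPM in Control at 3 or more, so the MIP values were not stepwise. Each step holds few UMIs: at 0 Enpp6 UMIs Pdgfa had 5 in MIP and 4 in Control. Nuclei holding a UMI of both genes were 3 of 127 in MIP and 5 of 211 in Control in the differentiating-like class, and 53 of 660 in MIP and 79 of 710 in Control in the precursor-like class. Nuclei with more Enpp6 UMIs were also deeper, with medians of 6111 in MIP and 7339 in Control at 3 or more, against 4450 in MIP and 4652 in Control at 0.

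**Figure D2:**
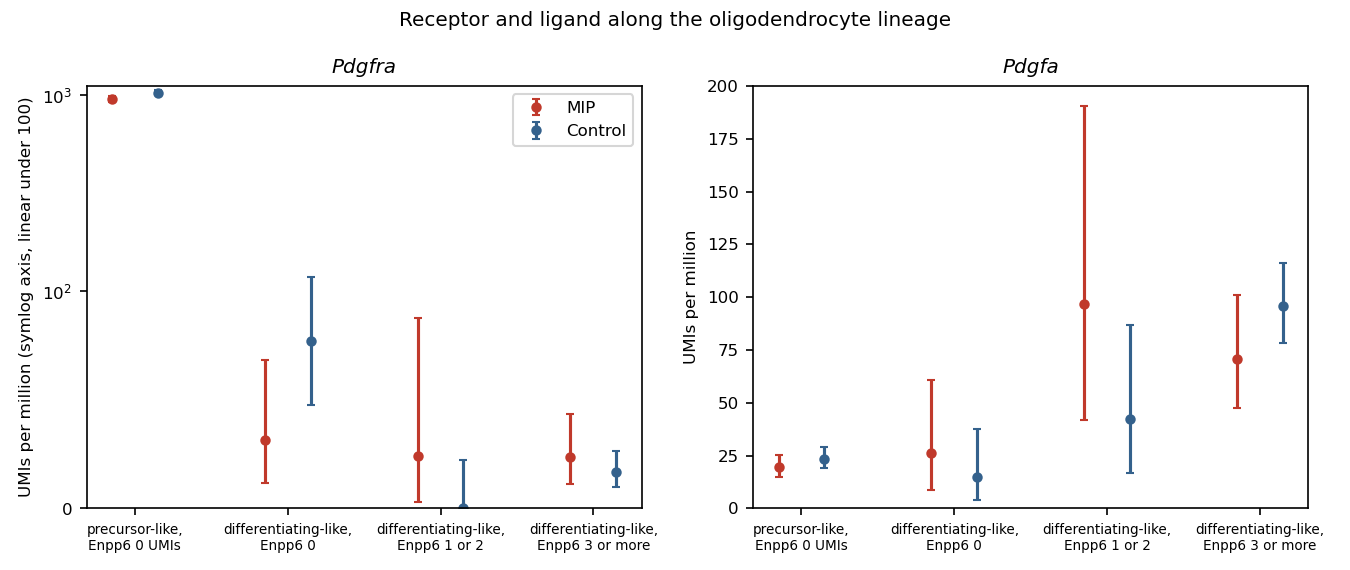
Pdgfra (left, symlog axis that is linear under 100) and Pdgfa (right, linear axis) in CPM along the oligodendrocyte lineage, split by Enpp6 UMIs, MIP in red left of Control in blue, with exact 95% intervals. Pdgfra is near 1000 in precursor-like nuclei and under 100 in differentiating-like nuclei, and Pdgfa is highest in differentiating-like nuclei with Enpp6 UMIs.

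In the glial and neuronal classes outside the lineage Pdgfra was low, and in several it was lower in MIP. Low-depth clusters together had 48.1 CPM of Pdgfra in MIP and 49.8 CPM in Control (29 and 219 UMIs). In astroglia-like nuclei (1060 MIP and 1157 Control) Pdgfra had 26 UMIs in MIP and 129 in Control, or 6.09 CPM in MIP and 18.8 CPM in Control, a log2 ratio of -1.62 (-2.29 to -1.01). A few nuclei carried much of this. No MIP nucleus and 9 Control nuclei had 3 or more Pdgfra UMIs, those 9 held 78 of the 129 UMIs, and the remaining nuclei stood at 6.09 CPM in MIP and 7.59 CPM in Control. Other precursor genes in the astroglia-like class were at 8.90 CPM in MIP and 7.71 CPM in Control for Cspg4, the NG2 proteoglycan, and at 3.28 CPM in MIP and 6.98 CPM in Control for Sox10, a lineage transcription factor. C1ql1 was at 4.68 CPM in MIP and 8.87 CPM in Control. UMIs were seen for 11 of the 11 precursor markers in both libraries, among them Ptprz1, which astroglia also express, with summed levels of 5944 CPM in MIP and 6315 CPM in Control, and none was at 0. Their part in the Pdgfra value was not tested. The log2 ratio was -0.68 with nuclei thinned to 2000 UMIs and -0.96 with classes taken from markers per nucleus.

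A lower value in MIP recurred in some other classes at low counts, and not in all. Microglia-like nuclei had 7.27 CPM of Pdgfra in MIP and 19.0 CPM in Control (7 and 19 UMIs), and cholinergic neuron-like nuclei 5.33 CPM in MIP and 21.1 CPM in Control (4 and 21 UMIs). In the cholinergic class 4 Control nuclei with 3 or more UMIs held 14 of the 21, and without such nuclei the values were 5.33 CPM in MIP and 7.74 CPM in Control. In the unnamed cluster 1 it was 3.54 CPM in MIP and 6.83 CPM in Control, and 2.88 CPM in MIP and 2.70 CPM in Control without such nuclei. Spiny projection neuron-like nuclei, the main striatal neurons, had 2.77 CPM in MIP and 4.0 CPM in Control. Neuroblast-like and excitatory neuron-like nuclei were at log2 ratios of -0.17 and -0.20, with intervals that include 0. The unnamed cluster 13 leaned the other way, with 6.30 CPM in MIP and 3.60 CPM in Control. Its log2 ratio was 0.81 (-0.33 to 1.94).

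Leptomeningeal fibroblast-like nuclei, 72 in MIP and 37 in Control, carried both receptors, and no ratio is given for classes under 50 nuclei in a library. Pdgfra was at 418 CPM in MIP and 168 CPM in Control, and Pdgfrb at 63.2 CPM in MIP and 152 CPM in Control. Both receptors were found together in 16 of 72 MIP and 14 of 37 Control nuclei. The 2 receptors thus leaned in opposite ways between the libraries here, and the Control nuclei were deeper, with medians of 4587 UMIs in MIP and 7826 in Control.

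Pdgfrb, the beta receptor (ENSMUSG00000024620, mm10 chr18:61045150-61085061, plus strand, 39.9 kb), was highest in mural-like nuclei, the class of pericytes and vascular smooth muscle. All 10 MIP and all 17 Control mural-like nuclei had a Pdgfrb UMI, with 1104 CPM (795 to 1492) in MIP and 905 CPM (711 to 1136) in Control. Over both libraries leptomeningeal fibroblast-like nuclei at 104 CPM, astroglia-like nuclei at 83.9 CPM and endothelial-like nuclei at 83.1 CPM followed, and neighbours in that order overlapped. The endothelial-like value rests on 14 UMIs in 2 of 12 MIP nuclei and 3 UMIs in 2 of 21 Control nuclei. Precursor-like nuclei, where the alpha receptor is highest, were at 0.887 CPM of Pdgfrb.

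In astroglia-like nuclei, which held most of the Pdgfrb UMIs, the beta receptor was higher in MIP. Pdgfrb had 439 UMIs in MIP and 496 in Control, or 103 CPM (93.4 to 113) in MIP and 72.1 CPM (65.9 to 78.7) in Control, a log2 ratio of 0.51 (0.32 to 0.70). A UMI was found in 32.3% of MIP and 30.9% of Control nuclei, at median depths of 3646.5 and 5104 UMIs, and after thinning in 19.0% of MIP and 13.5% of Control nuclei. In microglia-like nuclei the share was 1.14% in MIP and 0.671% in Control. The UMIs were spread over nuclei, with 1.32 per nucleus that had any in the largest astroglia-like cluster. With doublets kept the class grew to 1389 MIP and 1699 Control nuclei and its Pdgfrb level was 62.9 CPM in MIP and 43.8 CPM in Control, a log2 ratio of 0.52.

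The astroglia-like class was mainly 2 clusters, and the Pdgfrb difference lay in the larger one. Cluster 4, which holds Slc1a3 and Aldh1l1 among its leading genes, had 102 CPM in MIP and 62.2 CPM in Control, a log2 ratio of 0.71 (0.47 to 0.96). Cluster 11, led by Veph1 and with Hgf among its leading genes, had 116 CPM in MIP and 108 CPM in Control, a log2 ratio of 0.09 (-0.25 to 0.43). Pdgfc followed with 33.5 CPM in MIP and 56.2 CPM in Control in cluster 4, a log2 ratio of -0.75 (-1.10 to -0.40), and 54.5 CPM in MIP and 65.4 CPM in Control in cluster 11. Pdgfd was at 66.4 CPM in MIP and 56.5 CPM in Control in cluster 4, a log2 ratio of 0.23 (-0.05 to 0.52). In cluster 11 it was at 28.9 CPM in MIP and 26.4 CPM in Control, a log2 ratio of 0.13 (-0.60 to 0.82). The difference between the clusters was not tested.

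Read against all genes, these counts are small numbers. Of 6 measured members in the astroglia-like class, 0 were past a fold of 1.5 upward and 2 downward (Pdgfra and Pdgfc), where 4.91% of 14887 genes were past it upward and 15.5% downward. In cluster 4, 1 of 5 was past it upward (Pdgfrb) and 2 downward, against 6.04% and 14.7% of all genes. In cluster 11, 1 of 5 was past it upward, Pdgfa with 26 UMIs in MIP and 34 in Control, and 1 downward, Pdgfra, against 8.53% and 15.5%. Cluster 4 was 744 MIP and 678 Control nuclei and cluster 11 was 288 MIP and 414 Control nuclei.

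**Figure D3:**
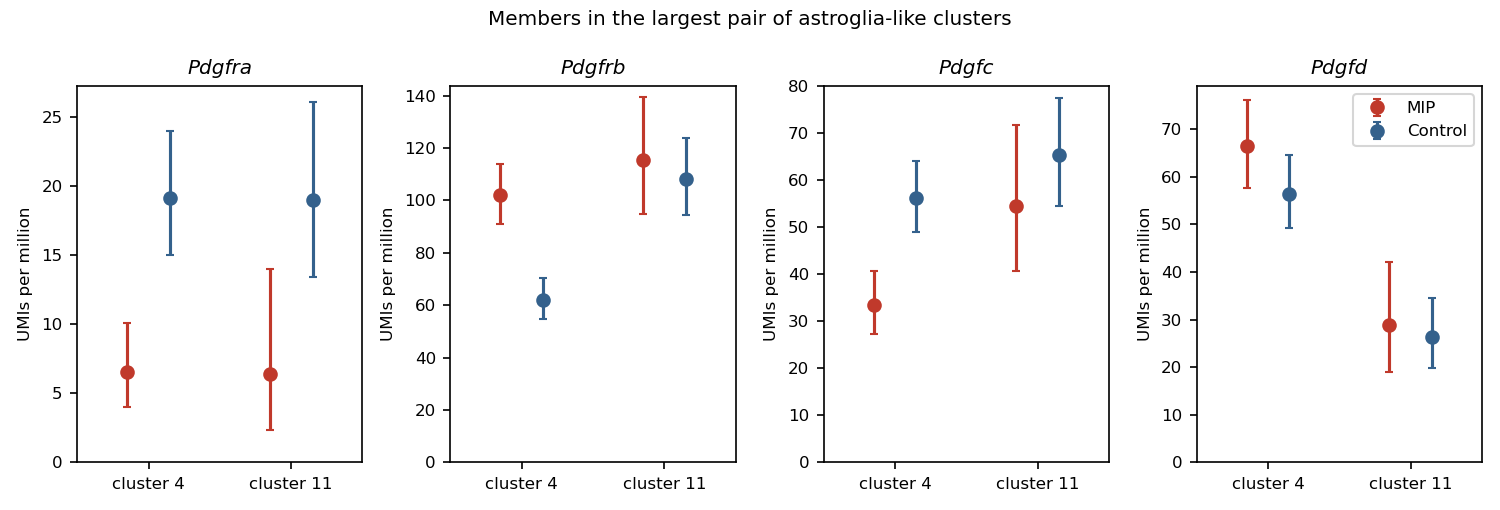
CPM of 4 of the genes in astroglia-like clusters 4 and 11, MIP in red left of Control in blue, with exact 95% intervals. Pdgfrb is higher and Pdgfc lower in MIP in cluster 4, while in cluster 11 the intervals of both overlap.

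In interneuron-like nuclei the beta receptor leaned the other way at low counts. Pdgfrb had 9 UMIs in MIP and 31 in Control, or 1.84 CPM in MIP and 5.41 CPM in Control, a log2 ratio of -1.56 (-2.81 to -0.45). Most lay in cluster 23, at 7.95 CPM in MIP and 16.4 CPM in Control. The log2 ratio in that cluster was -1.05, with an interval that includes 0 (-2.39 to 0.12). Cluster 23 was 120 of 523 MIP and 156 of 490 Control nuclei of the class, so the class sum weighs it unequally. Of 6 measured members in the interneuron-like class 0 were past a fold of 1.5 upward and 2 downward, Pdgfrb and Pdgfb, where 3.73% of 14212 genes were past it upward and 17.0% downward. Pdgfb stood at 5.10 CPM in MIP and 7.67 CPM in Control there (25 and 44 UMIs).

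Pdgfd, a ligand of the beta receptor (ENSMUSG00000032006, mm10 chr9:6168584-6378850, plus strand, 210 kb), was highest in an unnamed cluster and in endothelial-like and leptomeningeal fibroblast-like nuclei. Over both libraries the unnamed cluster 33, led by Bnc2, was at 518 CPM, endothelial-like nuclei at 416 CPM and leptomeningeal fibroblast-like nuclei at 310 CPM. Ependymal-like nuclei at 64.6 CPM and astroglia-like nuclei at 48.7 CPM followed and overlapped. Endothelial-like nuclei had 634 CPM in 12 MIP nuclei and 344 CPM in 21 Control nuclei, and leptomeningeal fibroblast-like nuclei 346 CPM in MIP and 268 CPM in Control. Microglia-like nuclei held 1 Pdgfd UMI in 649 nuclei. Mural-like nuclei, where its receptor is highest, had 0 Pdgfd UMIs in 27 nuclei, which allows up to 25.0 CPM.

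Within astroglia-like nuclei Pdgfd was concentrated in few of them. It was at 56.9 CPM in MIP and 43.6 CPM in Control, a log2 ratio of 0.38 (0.13 to 0.63), from 243 and 300 UMIs, and with doublets kept at 33.7 CPM in MIP and 24.9 CPM in Control. A UMI was found in 9.53% of MIP and 11.0% of Control nuclei, and single nuclei reached 12 UMIs in MIP and 20 in Control. In cluster 4 the variance over the mean was 4.54 for Pdgfd and 1.26 for Pdgfrb, with 2.35 Pdgfd UMIs per nucleus that had any. In the unnamed cluster 1, with 16 and 42 UMIs, Pdgfd was at 1.09 CPM in MIP and 2.14 CPM in Control, a log2 ratio of -0.97 (-1.90 to -0.11). There 0 of 6 members were past a fold of 1.5 upward and 2 downward (Pdgfra and Pdgfd), where 2.58% of 17667 genes were past it upward and 18.9% downward. The Pdgfd gene holds Ddi1 on the other strand, with 12 UMIs in MIP and 18 in Control.

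Pdgfb, the B chain (ENSMUSG00000000489, mm10 chr15:79995874-80014977, minus strand, 19.1 kb), was highest in endothelial-like nuclei, its known source for pericytes. These had 139 CPM in 12 MIP nuclei and 201 CPM in 21 Control nuclei, from 7 and 31 UMIs. Microglia-like nuclei came next, with 34.3 CPM in MIP and 31.0 CPM in Control, a log2 ratio of 0.14 (-0.61 to 0.90), and with doublets kept 20.7 CPM in MIP and 22.6 CPM in Control, a log2 ratio of -0.12. There a UMI was found in 8.26% of MIP and 9.73% of Control nuclei, against 0.943% and 1.21% of the deeper astroglia-like nuclei. Of 3 measured members in the microglia-like class, 0 were past a fold of 1.5 upward and 2 downward, Pdgfra and Pdgfa (13 UMIs in MIP and 22 in Control), where 12.3% of 10723 genes were past it upward and 22.1% downward.

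Neurons carried Pdgfb at a low level. Excitatory neuron-like nuclei had 135 UMIs in MIP and 132 in Control, a log2 ratio of 0.01 (-0.35 to 0.36). Their clusters differed. Clusters 12 and 17 were at 0.27 and 0.19, with intervals that include 0. Cluster 18 had 8 UMIs in MIP and 29 in Control, a log2 ratio of -1.49 (-2.83 to -0.33). Spiny projection neuron-like nuclei had 6.67 CPM in MIP and 9.93 CPM in Control, a log2 ratio of -0.57 (-0.88 to -0.27). Gm41361, an antisense gene that overlaps the start of Pdgfb (chr15:80012331-80042457), had more UMIs than Pdgfb itself: 1470 against 607 in MIP and 2481 against 1084 in Control. In spiny projection neuron-like nuclei it was at 22.6 CPM in MIP and 24.6 CPM in Control. Whether the counting used strand is not given in the sources used here, so reads of the pair cannot be told apart.

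Pdgfc, a ligand of the alpha receptor (ENSMUSG00000028019, mm10 chr3:81036416-81214040, plus strand, 178 kb), was the ligand with the clearest neuronal class. Excitatory neuron-like nuclei had 101 CPM (95.9 to 107) in MIP and 94.2 CPM (89.1 to 99.6) in Control, a log2 ratio of 0.10 (-0.01 to 0.22). The 3 main clusters of this class differed. Cluster 12 was at 111 CPM in MIP and 131 CPM in Control, cluster 17 at 114 CPM in MIP and 86.0 CPM in Control, a log2 ratio of 0.41 (0.22 to 0.60), and cluster 18 at 61.8 CPM in MIP and 65.4 CPM in Control. Cluster 12 held 471 MIP and 229 Control nuclei, so the sum of the class weighs the clusters unequally. At Leiden resolution 2 the class held 526 MIP and 591 Control nuclei and the log2 ratio was 0.39, and with nuclei thinned to 2000 UMIs it was -0.090. A UMI was found in 51.5% of MIP and 53.9% of Control excitatory neuron-like nuclei and in 1.71% and 0.336% of microglia-like nuclei, which are shallower. Of 5 measured members 1 was past a fold of 1.5 upward, Pdgfrb with 22 UMIs in MIP and 12 in Control, and 0 downward, where 4.11% of 16491 genes were past it upward and 17.2% downward.

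Leaving the low-depth clusters aside, the largest upward ratio of Pdgfc, among classes holding 50 or more nuclei per library and 20 or more UMIs, lay in the unnamed cluster 15. This cluster, with Adamtsl1, Tafa1 and C1ql3 among its leading genes, had 50.8 CPM in MIP (281 UMIs) and 24.8 CPM in Control (90 UMIs), a log2 ratio of 1.03 (0.69 to 1.39). A UMI was found in 135 of 379 MIP and 51 of 212 Control nuclei, and after thinning in 9.76% of MIP and 3.32% of Control nuclei. There 1 of 4 measured members was past a fold of 1.5 upward and 1 downward, Pdgfb at 8.86 CPM in MIP and 14.3 CPM in Control, where 5.03% of 13751 genes were past it upward and 20.7% downward.

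Pdgfc was lower in MIP in astroglia-like, neuroblast-like and spiny projection neuron-like nuclei, and not in every other large class. The unnamed cluster 1 had 25.3 CPM in MIP and 21.7 CPM in Control, a log2 ratio of 0.22 (0.01 to 0.42), and the unnamed cluster 8 had 17.2 CPM in MIP and 16.4 CPM in Control, a log2 ratio of 0.06 (-0.45 to 0.57). The astroglia-like class had 36.5 CPM in MIP and 57.3 CPM in Control, a log2 ratio of -0.65 (-0.93 to -0.38), with a UMI in 11.3% of MIP and 22.3% of Control nuclei, and after thinning in 6.48% and 10.5%. Neuroblast-like nuclei, the migrating newborn neurons, had 9.40 CPM in MIP and 17.0 CPM in Control, a log2 ratio of -0.86 (-1.72 to -0.07). In that class 0 of 4 measured members were past a fold of 1.5 upward and 2 downward, Pdgfc and Pdgfb (5 UMIs in MIP and 22 in Control), where 6.41% of 12739 genes were past it upward and 13.0% downward. Spiny projection neuron-like nuclei had 22.8 CPM in MIP and 29.9 CPM in Control, a log2 ratio of -0.39 (-0.56 to -0.23). There 0 of 6 members were past a fold of 1.5, where 3.44% of 17858 genes were past it upward and 16.5% downward.

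The antisense gene Gm16000 lies inside Pdgfc near its start (chr3:81037408-81040437), and its level went with that of Pdgfc in part. It was at 8.20 CPM in MIP and 21.5 CPM in Control in astroglia-like nuclei, and at 13.9 CPM in MIP and 6.90 CPM in Control in cluster 15. In excitatory neuron-like nuclei it was at 25.1 CPM in MIP and 35.4 CPM in Control, where Pdgfc was not lower in MIP. The part of shared reads in these values was not tested.

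Pdgfa was similar across the sums of the named neuron classes, though not across their clusters. Over both libraries the named neuron classes other than neuroblast-like nuclei lay between 23.5 and 28.4 CPM. The unnamed cluster 15 stood above them at 35.1 CPM and the unnamed cluster 8 below them at 17.8 CPM. Spiny projection neuron-like nuclei had 25.8 CPM in MIP and 30.2 CPM in Control, a log2 ratio of -0.23 (-0.39 to -0.07), and excitatory neuron-like nuclei 24.5 CPM in both. The excitatory clusters differed: cluster 12 was at 25.5 CPM in MIP and 23.3 CPM in Control, and cluster 17 at 31.6 and 29.4 CPM. Cluster 18 was at 12.2 CPM in MIP and 18.9 CPM in Control, a log2 ratio of -0.64 (-1.26 to -0.04). Ependymal-like nuclei, the ciliated lining of the ventricle, had 66.5 CPM in 26 MIP nuclei and 77.8 CPM in 50 Control nuclei. The antisense gene 6330403L08Rik overlaps Pdgfa, with 179 UMIs in MIP and 343 in Control.

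**Figure D4:**
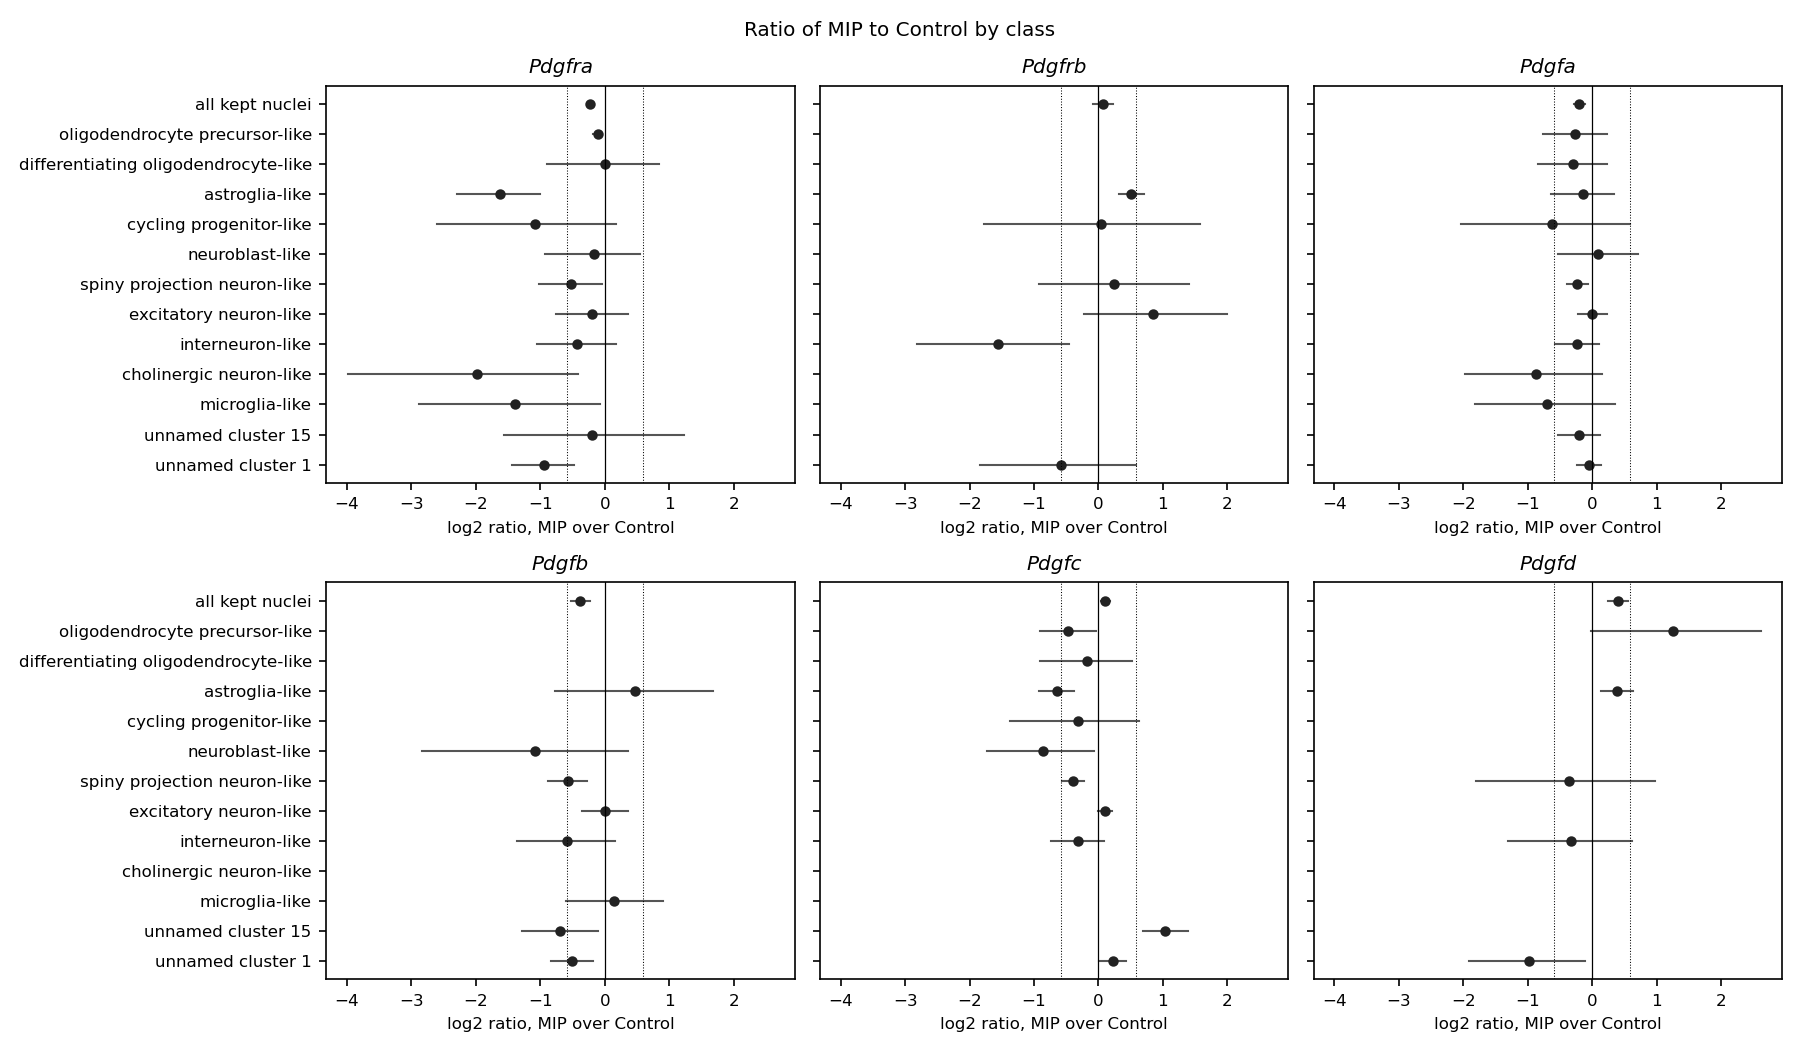
Log2 ratio of MIP to Control of each gene over all kept nuclei, in each named class holding 50 or more nuclei per library and 20 or more UMIs of the gene, and in the unnamed clusters 15 and 1, with exact 95% intervals. Dotted lines mark a fold of 1.5 either way. Among the ratios plotted, the one past the upper line whose interval leaves out 0 is that of Pdgfc in cluster 15, at 1.03.

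Other genes of the pathway were read in precursor-like nuclei, the class with the alpha receptor, against a median log2 ratio of -0.11 over all genes of the class, of which 4.3% were past a fold of 1.5 upward and 15.3% downward. Of 13 measured ERK feedback and early target genes 3 were past a fold of 1.5 upward in MIP and 0 downward, with a median log2 ratio of 0.26. Egr1, an immediate early transcription factor, was at 55.8 CPM in MIP and 19.6 CPM in Control, a log2 ratio of 1.51 (1.11 to 1.92). Etv5, an ETS factor downstream of ERK, was at 136 CPM in MIP and 88.0 CPM in Control, a log2 ratio of 0.63 (0.41 to 0.84). Dusp6, the ERK phosphatase, was at 27.0 CPM in MIP and 17.3 CPM in Control, a log2 ratio of 0.64 (0.16 to 1.14). The immediate early genes Fos and Jun were at 5.55 and 37.1 CPM in MIP and at 4.64 and 45.7 CPM in Control.

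In the upstream lists few genes were past this fold, and the downward counts are to be read against the 15.3% of all genes of the class. Of 17 receptor-bound signalling proteins 0 were past a fold of 1.5 upward and 1 downward, with a median of 0.12, and of 14 genes of the PI3K and AKT arm 0 were past it either way, with a median of -0.03. Of 12 genes of the RAS and ERK arm 0 were past it upward and 2 downward, with a median of 0.07; such a downward share is near that of all genes. Hras, a RAS GTPase, lay at the limit with 44.0 CPM in MIP and 66.1 CPM in Control, a log2 ratio of -0.59 (-0.90 to -0.27). Of 6 receptor phosphatases and ubiquitin ligases 0 were past it either way, with a median of 0.08.

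Of 7 measured genes for ligand processing, binding and co-receptors 0 were past it upward and 1 downward, near the 15.3% of all genes, with a median of -0.06: Nrp1, a co-receptor, was at 9.70 CPM in MIP and 17.5 CPM in Control, a log2 ratio of -0.85 (-1.54 to -0.20). Of the 9 precursor genes reported here 0 were past it either way, with a median of 0.019. Of 6 measured genes of the other class III receptor kinases and their ligands 0 were past it upward and 1 downward, again near the 15.3% of all genes, with a median of 0.06.

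**Figure D5:**
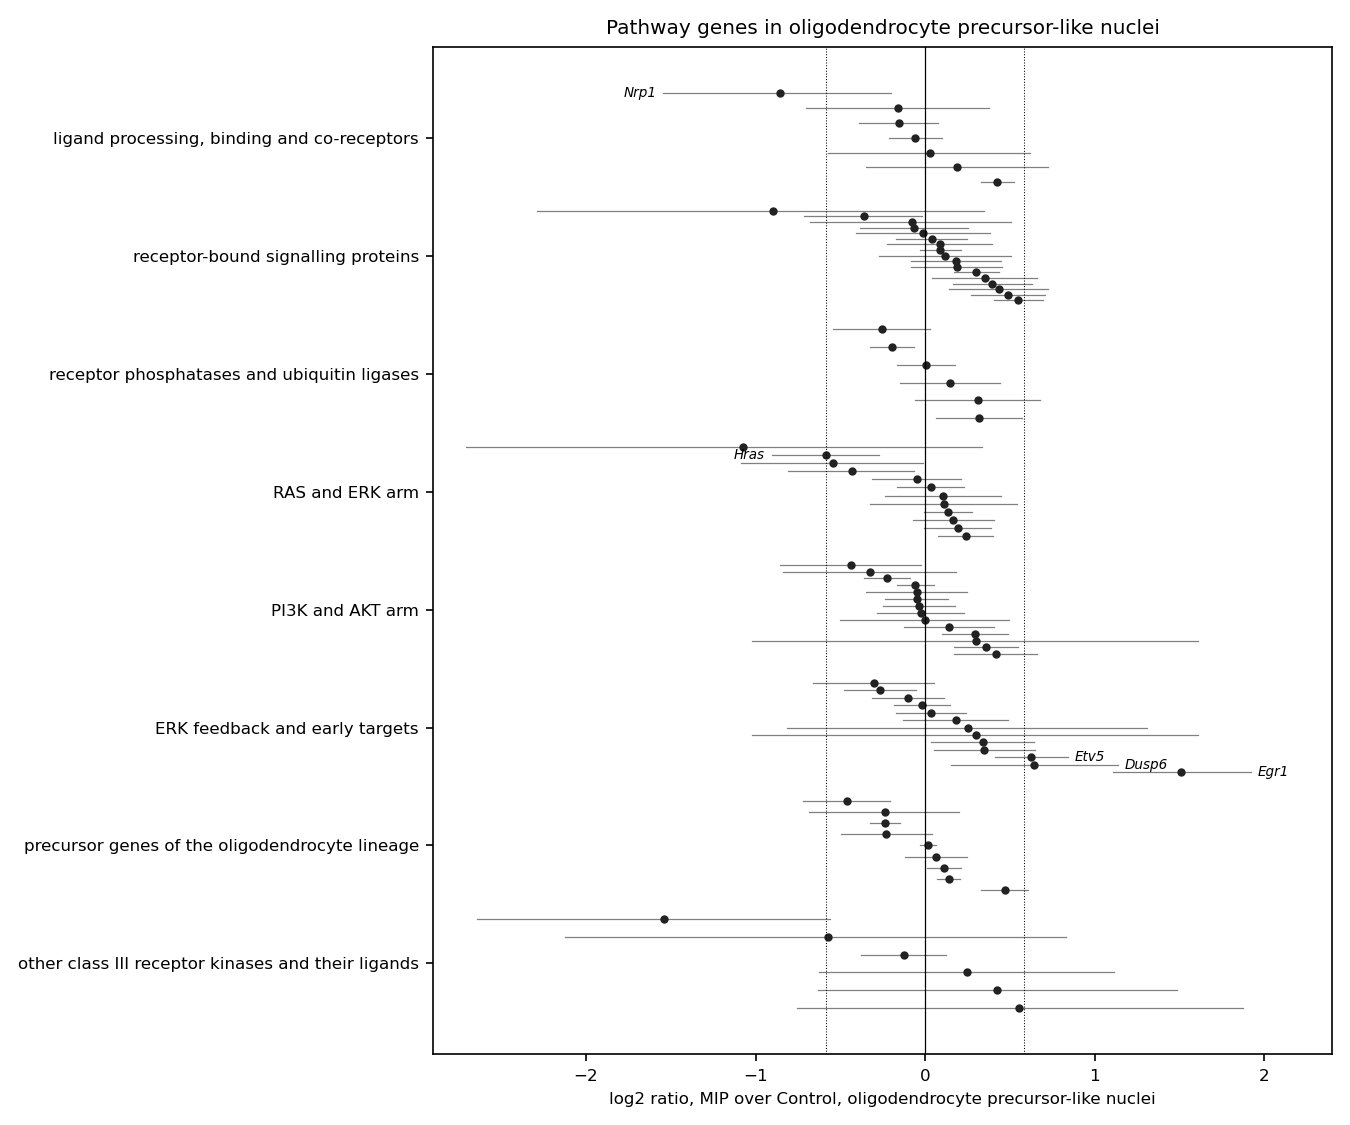
Log2 ratio of MIP to Control in oligodendrocyte precursor-like nuclei of each pathway gene with at least 20 UMIs, grouped by list, with exact 95% intervals and dotted lines at a fold of 1.5. Genes past that fold with at least 60 UMIs are named, and Egr1 at 1.51 lies farthest to the right.

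The genes whose levels most resembled each member were found over 38 sums (19 classes in each library), which share their library and depth, by Pearson correlation of log2(CPM + 10) among 16721 genes. For Pdgfra they were Mmp15 (r = 0.94), Spry4 (0.91), Cspg4, Shc4 and C1ql1. For Pdgfrb they were Slc39a12 (0.96), Plcd4, Daam2, Fmo1 and Dio2. Arhgdib (0.87), Ehbp1l1, Atp13a2, Atp6v0b and Orai2 were nearest to Pdgfb, and Aldh1l1 (0.91), Fzd6, Gm266, Cyp2j9 and Ppara to Pdgfd. The mural-like, endothelial-like and leptomeningeal fibroblast-like classes were too small to enter, so these orders do not see the classes where Pdgfrb, Pdgfb and Pdgfd are highest. The low-depth clusters 0 and 10 did enter. The highest sums of Pdgfa (185 CPM) and Pdgfb (37.1 CPM) were those of 50 MIP nuclei of cluster 0, from 10 and 2 UMIs. The orders for these ligands therefore lean on few UMIs. The nearest genes to Pdgfa were Acot7 (0.82), Ehd3, Map1a, Pusl1 and 9530080O11Rik, and to Pdgfc its own antisense gene Gm16000 (0.80), Antxr1 (0.75), Frmd6, Gm28376 and Eml1.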

How the data were processed

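The authors deposited raw UMI counts per gene and barcode, made with Cell Ranger 5.0.1 on mm10 per the submitters' processing notes. Whether intronic reads or strand were used is not given in the sources used here. The 6 members and all gene lists, markers and alternatives were chosen with earlier results of these data known.

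Barcodes under 500 genes (204 MIP, 0 Control) or over 5% mitochondrial UMIs (48 MIP, 114 Control) were left out. The automatic threshold of Scrublet in Scanpy 1.11.5 marked 0 doublets, so the top-scoring 0.8% per 1000 barcodes were removed, 1174 MIP and 2271 Control. Both libraries were clustered together (3000 variable genes without the 6 members, 40 components, 20 neighbours, Leiden resolution 1, leidenalg 0.10.2), giving 41 clusters. A cluster was named for a class with 3 or more markers among its top 60 genes, more than any other class, and at least 1 among its top 10. Clusters without a name at a median depth more than 3 times under that of the deeper library are called low-depth.

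UMIs were summed per class and library and divided by the class total (CPM). Ratios were taken for classes holding 50 or more nuclei per library and 20 or more UMIs of the gene over both, with exact intervals that treat both sums as Poisson counts. Shares have exact Clopper-Pearson intervals. A count of 0 was read as allowing 3 UMIs. Nuclei are not replicates, so no p-value is given. The interval code was checked on simulated Poisson counts. That check cannot show how the intervals hold where nuclei vary more than counting alone gives.

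The precursor list leaves out 1 gene, which is not reported here, and its count and median are over the other 9. Named genes were the members, list genes past a fold of 1.5 with at least 60 UMIs in precursor-like nuclei, and the 5 genes most like each member. Fos, Jun, Cspg4, Sox10, C1ql1 and antisense genes were added after their values were seen, as was the split by Enpp6. Gene positions are from GENCODE M21. SciPy 1.17.1 and NumPy 2.4.6 were used.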

Additional observations from a re-analysis of the deposited data

Results flagged for a closer look

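With low-depth clusters left aside, the ratio of MIP to Control of 3 members had opposite signs in different classes with intervals that leave out 0 on both sides. The differences between classes were not tested. As log2 ratios, Pdgfrb stood at 0.51 in astroglia-like and at -1.56 in interneuron-like nuclei. In cluster 23, which held most of the interneuron-like UMIs, it was at -1.05 with an interval that includes 0. Pdgfc stood at 1.03 in the unnamed cluster 15 and at -0.65 in astroglia-like nuclei. Pdgfd stood at 0.38 in astroglia-like nuclei and at -0.97 in the unnamed cluster 1. In astroglia-like clusters 4 and 11 taken alone it was at 0.23 and 0.13, with intervals that include 0. With low-depth clusters included Pdgfa also has both signs, at 1.51 (0.43 to 2.41) in low-depth cluster 0, from 10 UMIs in 50 MIP nuclei and 264 UMIs in 3445 Control nuclei, and at -0.23 in spiny projection neuron-like nuclei.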

How the results depend on the processing

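With 1 library per group, and MIP and sex not separable, these values describe the pair of libraries, and classes under 50 nuclei hold too few UMIs for a ratio. No paired analysis was possible because each group has 1 library, so no 2 pairs exist.

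Over all kept nuclei, centring on the median gene gave log2 ratios of -0.032 for Pdgfra, 0.26 for Pdgfrb and -0.0052 for Pdgfa. It gave -0.19 for Pdgfb, 0.30 for Pdgfc and 0.60 for Pdgfd, which makes Pdgfd 1 of 6 past a fold of 1.5 in place of 0. The share of all genes past that fold after centring, or as a mean over nuclei, was not counted. The mean over nuclei gave -0.068 for Pdgfra, 0.42 for Pdgfrb, -0.43 for Pdgfa and 0.76 for Pdgfd, again past that fold, and thinning gave -0.13 for Pdgfra, 0.34 for Pdgfrb and -0.14 for Pdgfc. Without the low-depth clusters, a setting added after seeing the data, the 6 ratios stayed inside their counting intervals. In precursor-like nuclei Pdgfra was at -0.021 centred and at -0.011 with classes from markers per nucleus, where its level was 893 CPM in MIP and 899 CPM in Control. In excitatory neuron-like nuclei Pdgfc was at 0.23 centred, 0.39 at resolution 2 and -0.090 thinned, and in differentiating-like nuclei Pdgfa was at -1.17 thinned. In cycling progenitor-like nuclei Pdgfra (6 UMIs in MIP and 39 in Control, log2 -1.08) was at 0.19 with classes from markers per nucleus. In astroglia-like nuclei Pdgfra, at -1.62, was at -0.68 thinned and at -0.96 with classes from markers per nucleus. The cause was not tested.

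With doublets kept, where the astroglia-like class held 1389 MIP and 1699 Control nuclei, the levels were 62.9 CPM in MIP and 43.8 CPM in Control for Pdgfrb in astroglia-like nuclei, 33.7 and 24.9 CPM for Pdgfd there, 35.7 and 49.7 CPM for Pdgfa in differentiating-like nuclei, 20.7 CPM in MIP for Pdgfb in microglia-like nuclei, and 81.2 and 70.6 CPM for Pdgfc in excitatory neuron-like nuclei. Pdgfc there was 91.3 CPM in MIP and 69.5 CPM in Control at resolution 2, and 78.9 and 73.2 CPM with classes from markers per nucleus. Thinned shares with a UMI were 82.0% in MIP and 80.8% in Control for Pdgfra, 19.0% and 13.5% for Pdgfrb, 6.35% and 11.9% for Pdgfa, 6.28% and 5.74% for Pdgfd, 15.7% and 16.1% for Pdgfc, and 6.07% in Control for Pdgfb, each in its class above. At a fold of 2 the lists held 1 ERK feedback gene upward, and downward 1 gene of the RAS and ERK arm and 0 in ligand processing and receptor-bound proteins. At 60 UMIs they held downward 1 gene of the RAS and ERK arm and 0 in receptor-bound proteins and other class III kinases. Over all kept nuclei 0.855% of genes were at least 2-fold higher in MIP and 5.88% at least 2-fold lower. Of genes with at least 60 UMIs there, 2.23% were at least 1.5-fold higher and 18.3% lower. The shares at these cut-offs in precursor-like nuclei are not given here, so the list counts are not read as a result.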
